A study of Homo sapiens with 12 samples.

Results

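SnoRNA host long non-coding RNAs (lncRNAs) are spliced, polyadenylated transcripts whose introns carry small nucleolar RNAs. The report covers 8 of them, GAS5, SNHG1, SNHG5, SNHG6, SNHG8, SNHG12, SNHG15 and ZFAS1, chosen by name from a table of 56337 gene entries. Their levels come from poly(A) RNA sequencing of wild type HEK293T cells, a line derived from embryonic kidney and transformed with viral T antigen, which was grown in RPMI medium with serum. There were 4 groups of 3 libraries. Ctrl cells were given neither agent. BafA1 cells were given bafilomycin A1, which blocks the proton pump (V-ATPase) of lysosomes, at 10 nM for 24 h. FAC cells were preincubated for 24 h with 0.1 mg/ml ferric ammonium citrate, a source of soluble iron, and then left without bafilomycin A1, and Combo cells had the same preincubation before 24 h of 10 nM bafilomycin A1.

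Once a snoRNA has been cut from its intron, the spliced host RNA goes to the cytoplasm, where ribosomes read short open reading frames in it. Termination on those frames exposes the RNA to nonsense-mediated decay (NMD), so these hosts are known to accumulate when translation or NMD is blocked. Many snoRNA hosts also begin with a terminal oligopyrimidine (TOP) tract, a run of C and T at the transcription start that they share with the mRNAs of ribosomal proteins and translation factors, and through which growth signals regulate their use.

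The starts of the hosts are shown because that tract is the feature they are best known to share. RefSeq (GRCh38.p14) starts were used for 6 of the 8, and none is shown for SNHG6 or SNHG15. Each line holds the 30 bases before the start and the 30 from it on, 5′ to 3′ on the gene's strand. Capitals mark the longest run of C and T, in any order, that touches the 5 bases on either side of the start.
SNHG12: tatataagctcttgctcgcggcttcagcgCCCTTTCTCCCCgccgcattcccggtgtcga
ZFAS1: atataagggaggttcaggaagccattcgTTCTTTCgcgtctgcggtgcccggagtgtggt
SNHG1: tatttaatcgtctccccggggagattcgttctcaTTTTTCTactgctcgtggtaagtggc
SNHG5: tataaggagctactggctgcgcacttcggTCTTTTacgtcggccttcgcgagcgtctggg
SNHG8: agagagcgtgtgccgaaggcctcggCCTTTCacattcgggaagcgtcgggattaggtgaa
GAS5: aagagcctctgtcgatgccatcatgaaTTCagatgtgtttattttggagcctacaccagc

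The windows are chr1:28581844-28581903 on the minus strand for SNHG12, chr20:49278612-49278671 on the plus strand for ZFAS1 and chr11:62855856-62855915 on the minus strand for SNHG1. They are chr6:85678704-85678763 on the minus strand for SNHG5, chr4:118278732-118278791 on the plus strand for SNHG8 and chr1:173869016-173869075 on the minus strand for GAS5. SNHG12 had the longest run, 12 bases, and 3.44% of 35093 RefSeq promoters had one as long in the same place. ZFAS1 and SNHG1 had runs of 7 bases, a length reached by 15.4% of promoters, and SNHG5 and SNHG8 had runs of 6, reached by 22.2%. GAS5 had a run of 3. The RefSeq starts differ from those of the genes in GENCODE release 44, by 1259 bases for SNHG12, 464 for ZFAS1, 199 for SNHG5, 163 for GAS5 (outside the gene), 68 for SNHG1 and 59 for SNHG8, and need not be the starts used in these cells. For scale, the median run was 4 bases over all promoters and 8.5 over 10 promoters of TOP mRNAs that encode translation factors. The letters TATATAA were searched on both strands after the sequences had been seen. They occurred within 50 bases before the start in SNHG5, SNHG12 and ZFAS1, and in 0.806% of all promoters. The same letters were in 2 of the 10 TOP mRNA promoters, 2 of 39 of ribosomal protein genes and 0 of 19 of other snoRNA host lncRNAs. Because the letters were chosen with the 6 host sequences in view, these counts are a description only. TGATGNAA, the core of the amino acid response element bound by ATF4 (N is any base), searched on both strands of the 300-base promoters, had 0 matches in these 6 and occurred in 3.62% of all promoters.

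GENCODE release 44 (GRCh38) annotates all 8 genes as lncRNA, and the values are totals over each gene's transcripts. GAS5 (ENSG00000234741) lies at chr1:173858559-173868882 on the minus strand, with 12 exons in its canonical transcript. SNHG12 (ENSG00000197989) lies at chr1:28578538-28583132, minus, with 6 exons, and SNHG1 (ENSG00000255717) at chr11:62851978-62855953, minus, with 11. SNHG5 (ENSG00000203875) lies at chr6:85650491-85678932, minus, with 6 exons, and SNHG8 (ENSG00000269893) at chr4:118278703-118285316, plus, with 3. SNHG15 (ENSG00000232956) lies at chr7:44983019-44986961, minus, with 3 exons, and ZFAS1 (ENSG00000177410) at chr20:49278178-49299600, plus, with 5; SNHG6 is ENSG00000245910, with 3 exons. Of the 19 snoRNA genes placed inside the hosts, all but SNORA9 in SNHG15 lie in introns of the canonical transcript.

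All 8 hosts were well expressed. Levels are in FPKM, fragments scaled to transcript length and to the library's total, which allows levels of different genes to be compared per length. In Ctrl, SNHG5 was highest at 431 ± 27.9 FPKM (SD, n = 3), then GAS5 at 260.5 ± 2.69, SNHG8 at 149 ± 8.91 and SNHG1 at 129.6 ± 6.77. SNHG6 followed at 78.7 ± 2.32, ZFAS1 at 59.8 ± 2.44, SNHG15 at 45.1 ± 3.29 and SNHG12 at 25.8 ± 1.62. No neighbours in this order overlapped between Ctrl libraries. The same order, again without overlap, held in FAC. In Combo, SNHG1 (127 ± 4.35 FPKM) and SNHG8 (124 ± 9.95) overlapped. In BafA1 the order was different: GAS5 (563 ± 29.1 FPKM) and SNHG5 (543 ± 39.7) overlapped at the top, ZFAS1 stood above SNHG8, and SNHG6 overlapped SNHG15. Together the 8 genes held 0.183 ± 0.0037% of all FPKM in Ctrl, 0.313 ± 0.0092% in BafA1, 0.183 ± 0.0032% in FAC and 0.185 ± 0.0036% in Combo (SD, n = 3).

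Depth, estimated from the steps between low FPKM values, was 34.5 to 38.5 M fragments per library (M, 10 to the power of 6). The estimate is loose: 52.8% (Ctrl replicate 3) to 67.3% (FAC replicate 3) of the genes used fell near a whole number of fragments. Libraries with and without FAC differed in how gene entries were filled: 627 entries stood at 0 in every library of one kind but reached 1 FPKM in each library of the other, and 0 of the 8 hosts were among them. Changes are therefore tested only between libraries alike in FAC. Where levels with and without FAC are set side by side, this is a description, and a change from Ctrl to FAC was not tested. Of markers expressed in HEK293 cells, 4 of 5 (VIM, NEFL, NEFM, INA; not PAX2) had a mean of at least 1 FPKM, against 1 of 6 for blood cells, 1 of 5 for fibroblasts and 0 of 5 for keratinocytes. The summed level of the HEK293 markers was 442 to 451 FPKM in Ctrl, 841 to 851 in BafA1, 426 to 436 in FAC and 667 to 672 in Combo, and its part in the results was not tested. In these bulk samples, fewer cells with a transcript and less of it per cell cannot be told apart.

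BafA1 without added iron raised 7 of the 8 hosts, 5 of them about 2-fold or more. The ordering by size was ZFAS1, GAS5, SNHG12, SNHG1 and SNHG15, then SNHG5 and SNHG6 with smaller rises, and SNHG8 alone at the other end. With FAC present the same BafA1 treatment left 7 of the 8 without a call and SNHG8 lower. Over all genes tested, 67.1% were called in either direction without FAC (29.5% higher) and 19.3% with it (9.76% higher). Most genes thus had no call with FAC either. The question behind the pair of comparisons is which effects of lost lysosomal acidity depend on the supply of iron.

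**Figure D1:**
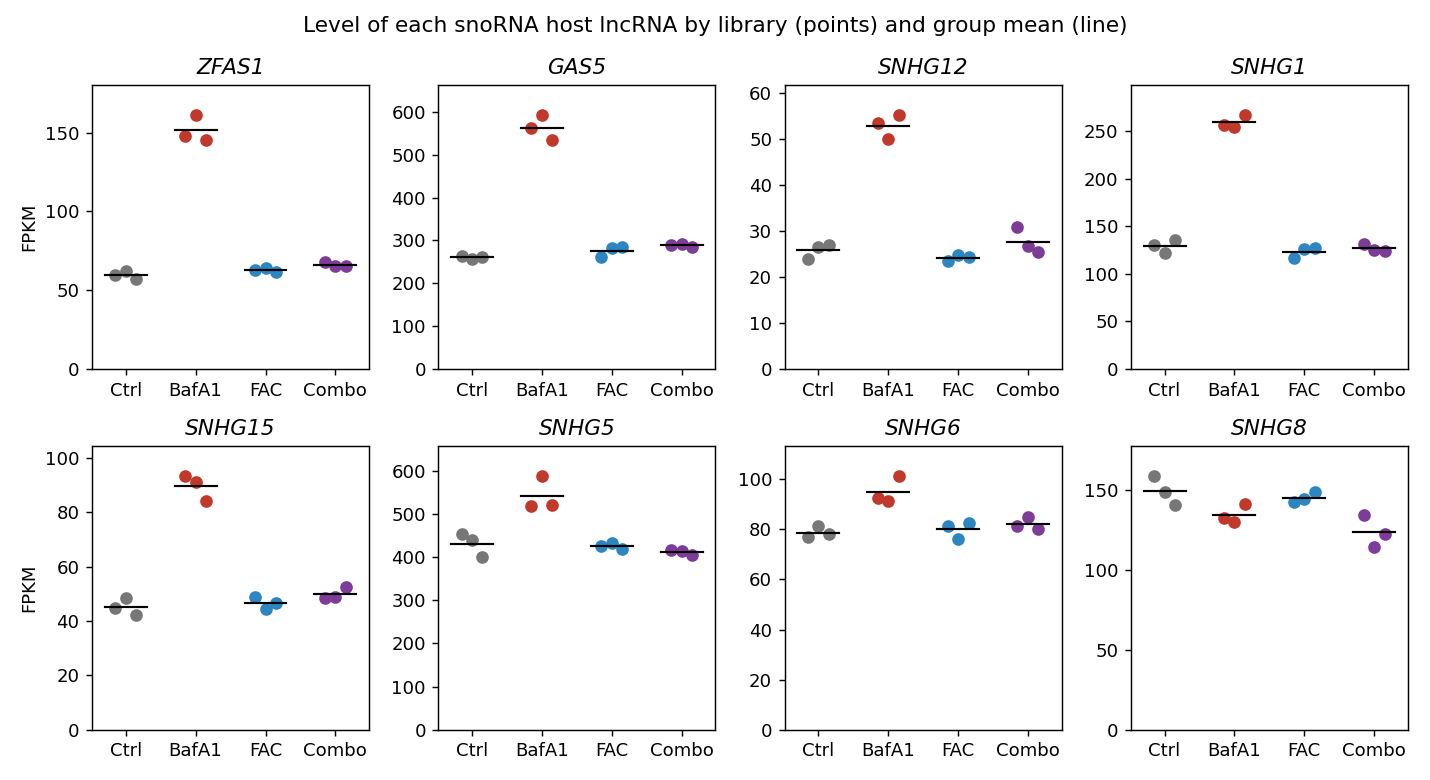
Level of each host in every library. The vertical axis is FPKM from 0 (linear, a scale of its own per gene), points are libraries and lines are group means (n = 3). In 7 panels all BafA1 points lie above all Ctrl points, while FAC and Combo points lie near those of Ctrl; SNHG8 is the exception.

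ZFAS1, named as the antisense RNA at the ZNFX1 start and host of the SNORD12 family, had the largest rise. It was at 59.9, 62.2 and 57.3 FPKM in the Ctrl libraries and at 148, 161 and 145 in the BafA1 libraries. With FAC it was at 63.1, 64.0 and 61.5 FPKM, and in Combo at 68.0, 65.1 and 65.5. The BafA1 libraries stood far above the rest, and the Combo libraries lay just above the FAC libraries without overlap. The ratio of means was 2.53 without FAC (log2 1.33 ± 0.04, SE; limma adjusted p = 1.29e-10) and 1.05 with it (log2 0.07 ± 0.04, adjusted p = 0.255).

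GAS5, growth arrest specific 5, is the best known of these hosts, first found as an RNA that accumulates in cells that stop growing. Its level was 262, 257 and 262 FPKM in Ctrl and 562, 592 and 534 in BafA1. In FAC it was 262, 283 and 283, and in Combo 288, 292 and 284. Every BafA1 library was far above all others, and Combo lay just above FAC without overlap. The ratio was 2.16 without FAC (log2 1.11 ± 0.04, limma adjusted p = 2.81e-10) and 1.04 with it (log2 0.06 ± 0.04, adjusted p = 0.300). Under quantile normalization alone the change with FAC passed the threshold, at 0.14 (adjusted p = 0.045).

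SNHG12, host of SNORA44, SNORA61, SNORA16A and SNORD99, was the lowest of the 8. It was at 24.0, 26.4 and 27.0 FPKM in Ctrl and at 53.5, 49.97 and 55.1 in BafA1, with no overlap. In FAC it was at 23.3, 24.7 and 24.2, and in Combo at 30.8, 26.7 and 25.35, also with no overlap, with 1 Combo library well above the other two. The log2 change was 1.01 ± 0.07 without FAC (ratio 2.05, limma adjusted p = 7.50e-08) and 0.19 ± 0.07 with it (ratio 1.15, adjusted p = 0.0767). The latter was 0.24 and passed the threshold without Combo replicate 3 (adjusted p = 0.0391), and was 0.11 without Combo replicate 1, the highest library (adjusted p = 0.266).

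SNHG1, host of SNORD22 and SNORD25 to SNORD31, was at 130.5, 122 and 136 FPKM in Ctrl and at 257, 254 and 267 in BafA1. In FAC it was at 117, 126 and 127, and in Combo at 132, 125 and 124. The BafA1 libraries lay close together and all above the rest, while FAC and Combo overlapped. The log2 change was 0.996 ± 0.0435 without FAC (ratio 2.00, limma adjusted p = 1.75e-09) and 0.04 ± 0.04 with it (ratio 1.03, adjusted p = 0.575).

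SNHG15, host of SNORA9, is known as a short-lived RNA that responds to stress. It was at 44.7, 48.6 and 42.0 FPKM in Ctrl and 93.4, 91.1 and 84.2 in BafA1. In FAC it was at 48.9, 44.4 and 46.7 and in Combo at 48.35, 48.7 and 52.7, with overlap. The log2 change was 0.97 ± 0.06 without FAC (ratio 1.98, limma adjusted p = 2.83e-08) and 0.10 ± 0.06 with it (ratio 1.07, adjusted p = 0.295).

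SNHG5 and SNHG6 rose less. SNHG5, host of SNORD50, was at 454, 439.8 and 399.8 FPKM in Ctrl and at 519, 588 and 520.4 in BafA1, and SNHG6, host of SNORD87, at 76.8, 81.3 and 78.1 and at 92.6, 91.5 and 101. In both genes all BafA1 libraries lay above all Ctrl libraries. SNHG5 changed by 0.33 ± 0.05 (ratio 1.26, limma adjusted p = 0.000113; 0.52 under quantile normalization) and SNHG6 by 0.27 ± 0.04 log2 units (ratio 1.21, adjusted p = 0.000191). With iron, SNHG5 was at 426, 434 and 419 FPKM in FAC and slightly lower, at 418, 415 and 406, in Combo (log2 -0.05 ± 0.05, adjusted p = 0.589). SNHG6 was at 81.5, 76.3 and 82.75 in FAC and at 81.4, 84.9 and 80.2 in Combo (log2 0.04 ± 0.04, adjusted p = 0.645).

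SNHG8, host of SNORA24, was the only one of the 8 that did not rise. It was at 159, 148 and 141 FPKM in Ctrl and at 132, 130.1 and 140.9 in BafA1, and these groups overlapped by a single pair of libraries. In FAC it was at 142, 144 and 149 and in Combo at 134, 115 and 122, all below FAC. The log2 change was -0.15 ± 0.06 without FAC (ratio 0.901, limma adjusted p = 0.0353) and -0.23 ± 0.06 with it (ratio 0.853, adjusted p = 0.0153). The first call was lost in 10 of 21 alternatives, which include leaving out single FAC or Combo libraries, a step that cannot alter this change. The change itself shrank to -0.08 under median-of-ratios scaling, -0.03 under quantile normalization and -0.05 with scaling to protein-coding FPKM (adjusted p = 0.216, 0.66 and 0.496). It stayed at -0.15 with no filter, no trend or the 2 groups fitted alone (adjusted p = 0.0971, 0.0589 and 0.054), and was -0.10 to -0.15 without Ctrl replicate 1 or 2 or BafA1 replicate 1 or 2. The second was lost in 3 of 21, including without Combo replicate 2 (-0.18, adjusted p = 0.0622).

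**Figure D2:**
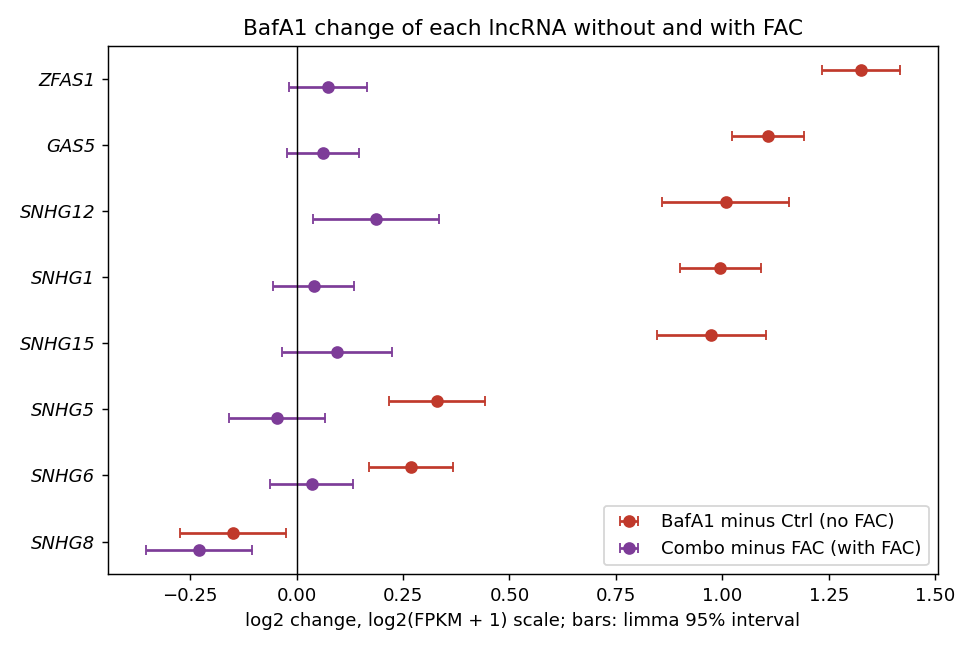
BafA1 change of each host without FAC (BafA1 minus Ctrl) and with FAC (Combo minus FAC). The horizontal axis is the log2 change on the log2(FPKM + 1) scale, and bars are 95% intervals from the limma fit. Without FAC the values run from -0.15 (SNHG8) to 1.33 (ZFAS1); with FAC all lie between -0.23 and 0.19.

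The limma fit thus called 7 of 8 hosts higher and 1 lower for BafA1 with Ctrl. Over all 13682 genes tested, 67.1% were called, 29.5% higher and 37.6% lower, and the median change was -0.04, against 0.99 for the hosts. All BafA1 libraries lay above all Ctrl libraries for 7 of 8 hosts, as they did for 30.4% of all genes, and all below for 0 of 8 hosts and 38.3% of all genes. By size, 5 of 8 hosts had at least 1.5 times their Ctrl mean, and 14.2% of all genes did. Among 1015 lncRNA entries tested, 171 (16.8%) were called higher and the median change was -0.01. ZFAS1 ranked 14 and GAS5 21 among them by log2 change. The entries tested can include some filled only with FAC, which stand at 0 in Ctrl and BafA1 and cannot be called here. Of the 627 entries filled on a single side, 302 are lncRNAs, and how many of them were tested was not counted.

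For Combo with FAC, 0 of 8 hosts were called higher and 1 lower, where 19.3% of all genes were called, 9.76% higher and 9.49% lower. At an unadjusted p under 0.05 the limma counts were 1 host higher (SNHG12) and 1 lower (SNHG8). With scaling to the sum of protein-coding FPKM the counts over all genes were 1549 higher and 958 lower, in place of 1336 and 1298. Combo libraries lay all above FAC for 3 of 8 hosts (ZFAS1, GAS5 and SNHG12) and all below for 2 (SNHG5 and SNHG8), against 18.8% and 18.1% of all genes. The median change of the hosts was 0.05, and 0 of 8 reached 1.5 times their FAC mean, while 4.96% of all genes did. The upper ends of the 95% intervals were 0.15 for GAS5, 0.17 for ZFAS1, 0.14 for SNHG1 and 0.22 for SNHG15, so rises of the size seen without FAC lie outside them.

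The difference between the BafA1 changes, with FAC minus without, was tested directly. It was negative and called for 7 of 8 hosts, where 50.1% of all genes had a called difference, 20.6% negative and 29.5% positive (2818 and 4032 genes, or 3501 and 3253 with scaling to protein-coding FPKM). It was largest for ZFAS1, at -1.25 ± 0.06 log2 units (limma adjusted p = 2.41e-08), and GAS5, at -1.04 ± 0.05 (adjusted p = 5.00e-08). SNHG1 (-0.96 ± 0.06), SNHG15 (-0.88 ± 0.08) and SNHG12 (-0.82 ± 0.10) followed, with intervals that overlapped. SNHG5 was at -0.38 ± 0.07 (adjusted p = 0.0011) and SNHG6 at -0.23 ± 0.06 (adjusted p = 0.00896). For SNHG8 the difference was -0.08 ± 0.08 (adjusted p = 0.431), with a 95% interval from -0.26 to 0.10.

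The sizes of the rises without FAC fell into steps. The 95% interval of ZFAS1 (1.23 to 1.42) lay above that of GAS5 (1.02 to 1.19), while those of GAS5, SNHG12, SNHG1 and SNHG15 overlapped their neighbours in the order. A gap then separated SNHG15 (0.85 to 1.10) from SNHG5 (0.22 to 0.44), whose interval overlapped that of SNHG6 (0.17 to 0.37), and SNHG8 (-0.27 to -0.02) was apart from both. Runs of C and T near the RefSeq starts can be set beside these changes. The 3 hosts with runs of 7 or more bases changed by 1.33 (ZFAS1), 1.01 (SNHG12) and 0.996 (SNHG1) log2 units. Those with runs of 6 were at 0.33 (SNHG5) and -0.15 (SNHG8). The run of SNHG1 does not cover its start, as it lies 4 to 10 bases after the start base. That of SNHG8 ends on the start base. GAS5, with a run of 3, was at 1.11. Its RefSeq start lies 163 bases outside the annotated gene. The other RefSeq starts also differ from the annotated ones, by 59 (SNHG8) to 1259 bases (SNHG12). With 6 starts, whose use in these cells was not measured, this is a description only.

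Several hosts share their start region or their span with a coding gene on the opposite strand, and whether counting used the strand is not given in the sources used here. Such reads cannot be told apart without it. SNHG1 starts 51 bases from SLC3A2, which encodes the heavy chain of amino acid transporters and is known as an ATF4 target. SLC3A2 was at 101, 97.2 and 103 FPKM in Ctrl and at 358, 351 and 366 in BafA1. It thus rose as SNHG1 did but further, 3.56-fold (log2 1.82, limma adjusted p = 1.86e-12), and it kept a called rise with FAC (log2 0.48, adjusted p = 1.37e-06), while the change of SNHG1 there was not called.

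No rise was called for ZNFX1, ZBTB37 or TRNAU1AP, partners of ZFAS1, GAS5 and SNHG12. ZNFX1, a helicase gene that starts 248 bases from ZFAS1 in the annotation, was at 3.58 ± 0.36 FPKM in Ctrl and 3.59 ± 0.24 in BafA1 (log2 0.01, limma adjusted p = 0.968). ZBTB37, which starts 800 bases from GAS5, was at 1.66 ± 0.23 and 1.71 ± 0.19 FPKM (log2 0.03, adjusted p = 0.824). TRNAU1AP, a selenocysteine tRNA factor gene that overlaps SNHG12, fell by 0.30 log2 units (adjusted p = 8.56e-05). PRSS12, a protease gene that overlaps SNHG8, was low and variable, at 5.64 ± 1.11 FPKM in Ctrl and 3.23 ± 1.10 in BafA1 (log2 -0.67, adjusted p = 0.0261). MCMDC2, which overlaps SNHG6, was at 0.12 FPKM or less in every library.

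**Figure D3:**
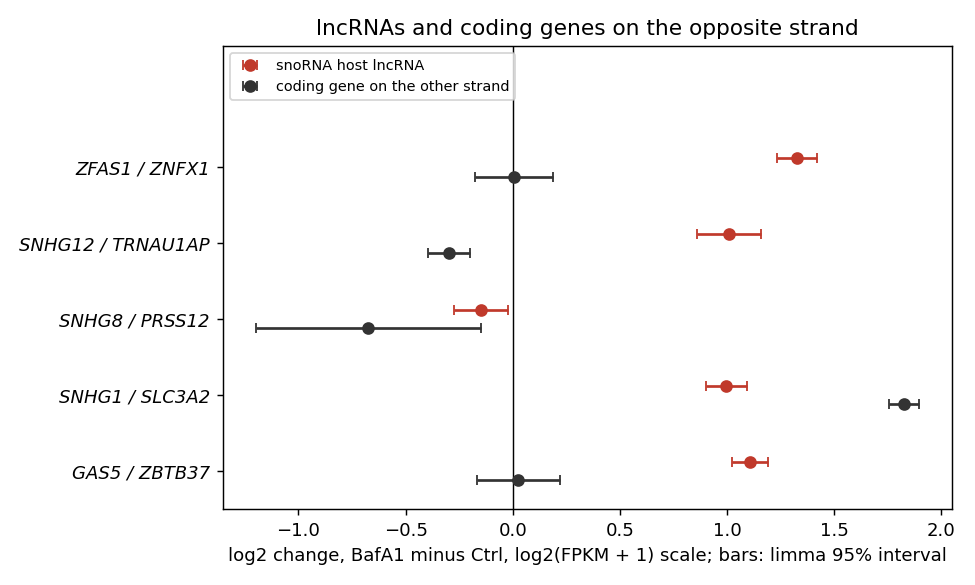
Log2 change after BafA1 without FAC (BafA1 minus Ctrl, log2(FPKM + 1) scale) of hosts and of the 5 coding genes on the opposite strand given here with a test. Bars are limma 95% intervals. SLC3A2 rose with SNHG1, while ZNFX1, ZBTB37 and TRNAU1AP lay between -0.30 and 0.03.

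Other lncRNAs that host snoRNAs went both ways. Of 21 listed, 17 were tested, and for BafA1 with Ctrl 8 were called higher (47.1%) and 7 lower (41.2%), with a median of 0.24. SNHG32 rose from 42.9 ± 1.69 to 139 ± 4.16 FPKM (log2 1.68, limma adjusted p = 1.34e-10) and SNHG17 from 28.3 ± 2.15 to 72.8 ± 1.46 (log2 1.33, adjusted p = 4.83e-10). DANCR, host of SNORA26, fell from 101 ± 0.581 to 60.7 ± 2.81 FPKM (log2 -0.73, adjusted p = 6.31e-09). With FAC, 1 of the 17 was called higher and 1 lower (5.88% each), where 9.76% and 9.49% of all genes were. The higher call was lost in 4 of 21 alternatives, among them without FAC replicate 3 or Combo replicate 1, and 2 were lower in 5 of 21, among them without FAC replicate 3 or BafA1 replicate 1 or 3. SNHG32, SNHG17 and DANCR were at 0.14, -0.04 and -0.11 (adjusted p = 0.0997, 0.631 and 0.0527). The difference of the changes was called negative for 7 and positive for 6 of the 17. The list thus held both transcripts that rose and transcripts that fell.

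**Figure D4:**
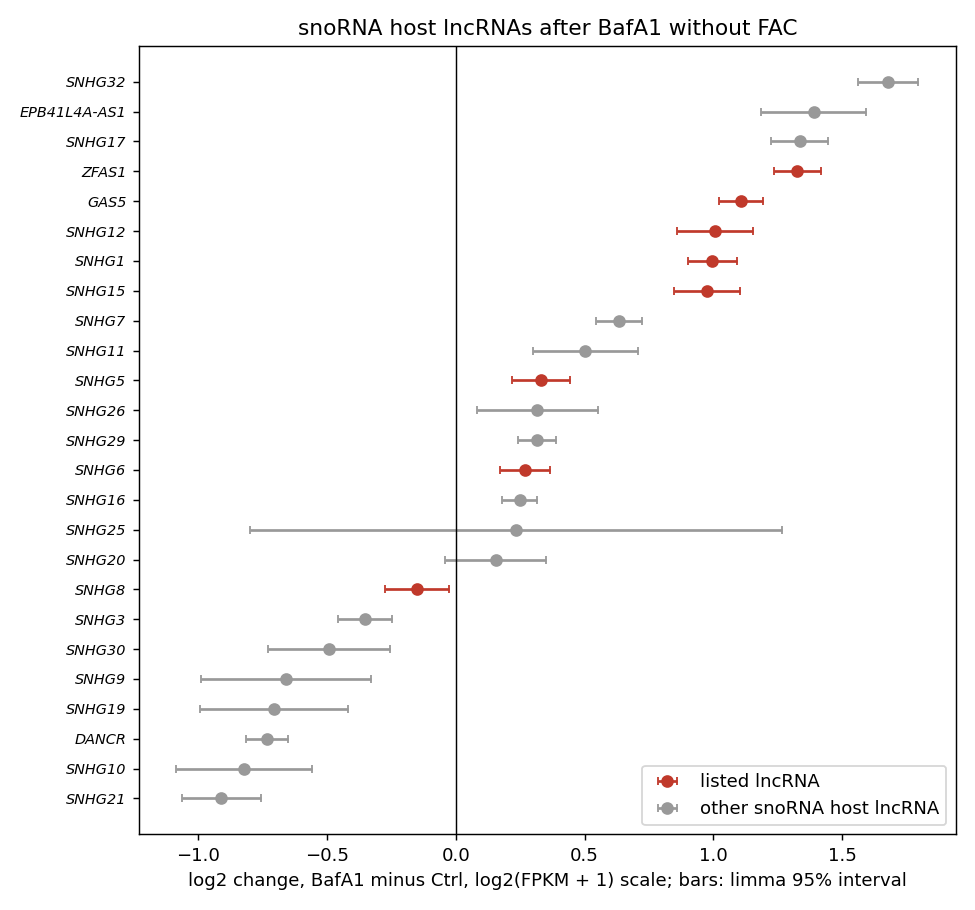
Log2 change after BafA1 without FAC of the 8 hosts described here and of the other 17 snoRNA host lncRNAs tested (log2(FPKM + 1) scale, bars are limma 95% intervals). The changes run from -0.91 (SNHG21) to 1.68 (SNHG32), and the 8 hosts lie between -0.15 and 1.33.

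Coding genes that host snoRNAs, ribosomal proteins left out, had 6 of 17 called higher (35.3%) and 7 lower (41.2%), near the 29.5% and 37.6% of all genes (median 0.01). HSPA8, the constitutive chaperone gene that carries SNORD14, fell from 1190 ± 5.29 to 395.5 ± 5.29 FPKM (log2 -1.59, limma adjusted p = 4.71e-13). WDR43, a nucleolar protein gene, rose by 0.59 (adjusted p = 1.01e-07), and EEF2, translation elongation factor 2, by 0.57 log2 units (adjusted p = 1.96e-07). With FAC, 1 was called higher (5.88%) and 9 lower (52.9%), with a median of -0.13. Under quantile normalization the counts with FAC were 2 and 6. Over all genes the shares with FAC were 9.76% and 9.49%.

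TOP mRNAs carry the same kind of start as many of these hosts. Among 14 TOP mRNAs of translation factors and related proteins, 5 were called higher (35.7%) and 3 lower (21.4%) after BafA1 (median 0.04). For all genes the shares were 29.5% and 37.6%. The counts of the TOP mRNAs followed the scaling, with 11 higher and 1 lower under quantile normalization. EIF4B, an initiation factor, rose by 0.33 (limma adjusted p = 8.91e-08) and PABPC1, the poly(A)-binding protein, by 0.38 log2 units (adjusted p = 1.01e-07). Of 40 ribosomal protein genes, 0 were called higher and 28 lower (median -0.14), or 6 higher and 9 lower under quantile normalization, and 1 was higher without BafA1 replicate 3 or FAC replicate 3. RPL6, RPS15 and RPSA were at -0.23, -0.46 and -0.30 (adjusted p = 8.04e-07, 1.06e-06 and 9.05e-06). With FAC, limma called 0 of 40 ribosomal protein genes in either direction (0 higher and 5 lower at an unadjusted p under 0.05). Under quantile normalization 3 were higher, and 1 was lower without Ctrl replicate 3 or BafA1 replicate 2 or 3. Of the 14 TOP mRNAs, 4 were called higher with FAC (28.6%, or 7 under quantile normalization) and 1 lower (7.14%). The shares of all genes with FAC were 9.76% and 9.49%. EIF4B and PABPC1 kept called rises with FAC, of 0.18 and 0.09 log2 units (limma adjusted p = 0.000249 and 0.0279).

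The factors of NMD and the exon junction complex mark and destroy transcripts with early stops. After BafA1, 5 of these 14 genes were called higher (35.7%) and 5 lower (35.7%), near the 29.5% and 37.6% of all genes. Their median change was -0.03. The counts were 5 and 2 with scaling to protein-coding FPKM, and 3 were lower without Ctrl replicate 2 or BafA1 replicate 3. EIF4A3, the core of the exon junction complex, fell from 157 ± 5.82 to 106 ± 2.53 FPKM (log2 -0.55, limma adjusted p = 4.69e-08). RBM8A, its partner, fell by 0.31 (adjusted p = 1.70e-06), and SMG9, a regulator of the kinase SMG1, rose by 0.72 log2 units (adjusted p = 5.71e-06). With FAC, limma called 0 higher and 3 lower (21.4%), or 0 and 4 at an unadjusted p under 0.05. Of all genes, 9.76% were called higher and 9.49% lower with FAC. EIF4A3 and RBM8A were among the 3, at -0.26 and -0.18 (limma adjusted p = 0.000377 and 0.00158).

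Coding transcripts known as NMD targets had 12 of 22 called higher (54.5%) and 6 lower (27.3%) after BafA1 (median 0.29). Over all genes the shares were 29.5% and 37.6%. The list holds stress response genes that are also induced by transcription. ATF3 rose from 19.8 ± 1.52 to 539 ± 22.2 FPKM (limma adjusted p = 3.16e-14), DDIT3, which encodes CHOP, from 7.48 ± 0.89 to 90.03 ± 3.60 (adjusted p = 1.12e-11), and GADD45B from 4.36 ± 0.832 to 68.9 ± 6.74 (adjusted p = 5.48e-11). These 3 kept called rises with FAC, at 2.17, 0.91 and 1.17 log2 units (adjusted p = 1.32e-10, 1.40e-05 and 1.60e-05). With FAC, 7 of the 22 were called higher (31.8%) and 6 lower (27.3%), against 9.76% and 9.49% of all genes. The lower calls were 3 under quantile normalization and without FAC replicate 2 or Combo replicate 1.

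Genes of translation control had 9 of 19 called higher (47.4%) and 3 lower (15.8%) after BafA1 (median 0.18). Of all genes, 29.5% were called higher and 37.6% lower. PPP1R15A, which directs removal of the phosphate from initiation factor eIF2 (GADD34), rose from 7.96 ± 0.14 to 77.2 ± 3.57 FPKM (limma adjusted p = 3.68e-12). SESN2, an inhibitor of mTORC1 signalling, rose from 19.6 ± 0.392 to 86.3 ± 0.721 (adjusted p = 4.82e-12), and TRIB3, a pseudokinase that restrains ATF4, from 8.54 ± 0.861 to 61.9 ± 3.88 (adjusted p = 1.46e-11). With FAC, SESN2 was at -0.11 and TRIB3 at 0.05 log2 units (adjusted p = 0.0868 and 0.674), neither called, while PPP1R15A rose by 1.05 (adjusted p = 4.67e-07). The proteins that bind and build snoRNAs had 7 of 17 called higher and 7 lower after BafA1 (41.2% each, median -0.06). NHP2 and NOP10, subunits of the box H/ACA particle, fell by 0.81 and 0.60 (adjusted p = 1.32e-09 and 2.13e-09), and ZNHIT6, which assembles box C/D particles, rose by 0.63 log2 units (adjusted p = 2.61e-08).

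The snoRNAs themselves could not be followed in these libraries. GENCODE release 44 places 19 snoRNA genes inside 7 of the hosts. None was found inside GAS5, and no entry in SNHG1 is named SNORD29 or SNORD31, so the list may be incomplete. Of the 19, 18 had an entry in the table. Of these, 10 were at 0 in every library and the highest single value was 5.75 FPKM. A mean of at least 1 FPKM was reached by 2 entries, a SNORD22 copy (ENSG00000278527) in SNHG1 and SNORD12B in ZFAS1, above 0 in 8 and 6 of the 12 libraries. Selection of polyadenylated RNA and short entry length limit such values.

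The genes most like the mean pattern of the 8 hosts were OSTC, SERP1, HEY1, PPIL4 and TRIB3. Likeness was Pearson's r over 12 libraries between deviations from the mean of the libraries alike in FAC, among 9655 genes averaging 5 FPKM or above, and is given as a description; r was 0.997 for each of the 5. OSTC, a subunit of the oligosaccharyltransferase of the endoplasmic reticulum, went from 148 ± 1.71 to 254 ± 3.78 FPKM with BafA1 and was at 148 in FAC and 149 in Combo. SERP1, a stress-induced membrane protein of the same organelle, went from 48.1 ± 1.88 to 124.9 ± 2.95 FPKM and was at 48 in FAC and 49.1 in Combo. Of the 8 hosts, r with the mean that includes them was 0.973 or more for ZFAS1, GAS5, SNHG1, SNHG15 and SNHG12, 0.896 for SNHG5, 0.890 for SNHG6 and -0.448 for SNHG8.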

How the data were processed

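Per the labels' protocols, the 12 HEK293T libraries were prepared from mRNA by a strand-preserving kit. The authors deposited FPKM per gene, rounded to 2 decimals; STAR, RSEM and GRCh38 are named in the submitters' processing notes, while no source used here gives versions, annotation release or strand setting. Of 56340 rows, 3 all-0 repeats of a gene ID were dropped; 56104 of 56337 IDs matched the name list. Values were taken as log2(FPKM + 1). Genes averaging 1 FPKM or above (13682) were fitted with limma 3.58.1 in R 4.3.3: a mean per group, all 12 libraries, a trend in the prior variance, Benjamini-Hochberg adjustment over all genes within each of 3 comparisons, and calls at an adjusted p under 0.05. This scale understates changes of low genes. The fit was tested on simulated data. Ratios are of mean FPKM.

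Members and lists were chosen with earlier results of these data known. Named were the 8 hosts, the 3 members of each other list with the smallest adjusted p for BafA1 with Ctrl, coding genes overlapping a host or starting within 1000 bases of one on the other strand (some are not reported here), and the 5 most alike genes; SNHG21 and the other markers were named after their values were seen. Gene positions came from GENCODE release 44 and starts from RefSeq, both on GRCh38. The labels do not say that replicates were separate cultures, so the p-values reflect only how these samples vary, which may be technical. Depth was estimated from single-transcript genes with an assumed fragment length of 150 bases; no counts were recovered.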

Additional observations from a re-analysis of the deposited data

Results flagged for a closer look

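The BafA1 change with FAC differed from that without FAC, by the limma test of the difference itself, in 7 of the 8 hosts, where 50.1% of all genes had a called difference and 20.6% a negative one. The difference was -1.25 log2 units for ZFAS1, -1.04 for GAS5, -0.96 for SNHG1, -0.88 for SNHG15, -0.82 for SNHG12, -0.38 for SNHG5 and -0.23 for SNHG6. Each of the 7 rose without FAC in 3 of 3 libraries, all above every Ctrl library, as did 30.4% of all genes. The comparison sets a change measured among libraries without FAC against one measured among libraries with it, which differ in how other gene entries were filled; the part of this in the differences was not tested.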

How the results depend on the processing

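The 7 calls of higher hosts after BafA1 and the 7 called negative differences held under all 21 and 20 alternatives run. For each BafA1 change, the 21 include leaving out libraries outside its 2 groups, which bears only on the estimate of spread. The single lower call after BafA1 (SNHG8) went to 0 hosts with no filter on low values, median-of-ratios scaling, quantile normalization, scaling to protein-coding FPKM, no trend and the 2 groups fitted alone, and ranged from 0 to 1 with 1 library left out. With FAC, hosts called higher were 1 under quantile normalization (GAS5) and 0 to 1 with 1 library left out; hosts called lower were 0 with no filter on low values and with the 2 groups fitted alone, and 0 to 1 with 1 library left out. The cause was not tested. The replicate numbers are shared between groups but same-numbered libraries did not deviate together: correlations of deviations were -0.03 to 0.03 between Ctrl and BafA1 and -0.02 to 0.03 between FAC and Combo. With a replicate block, 7 hosts were called higher and 1 lower after BafA1, 0 and 1 with FAC, and 7 had a called negative difference. Over all lncRNA entries, calls after BafA1 were 68 to 382 higher and 78 to 490 lower across alternatives, against 171 and 259. Median-of-ratios scaling moved the median change of all genes from -0.04 to 0. The FPKM carry no counts, so no limit from depth was set on single values.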

Other observations

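Among 17 other lncRNAs listed, 13 were tested. NORAD, a cytoplasmic RNA that binds Pumilio proteins, rose after BafA1 from 59.4 ± 0.887 to 90.9 ± 1.78 FPKM and, with FAC, from 59.8 ± 1.54 to 71.2 ± 0.946 (limma adjusted p = 3.77e-09 and 0.000134). CYTOR rose from 2.24 ± 0.254 to 5.21 ± 0.429 FPKM and, with FAC, from 2.62 ± 0.129 to 5.03 ± 0.233 (adjusted p = 4.39e-07 and 5.61e-05). MALAT1, a nuclear RNA, rose from 7.56 ± 0.153 to 13.9 ± 2.18 FPKM and, with FAC, from 6.04 ± 0.856 to 9.25 ± 0.742 (adjusted p = 3.96e-05 and 0.00473). Of the 13, 7 were called higher and 2 lower without FAC (53.8% and 15.4%), and 5 and 1 with it (38.5% and 7.69%). Over all genes the shares were 29.5% and 37.6% without FAC, and 9.76% and 9.49% with it. The lower call with FAC was lost in 12 of 21 alternatives, among them without any 1 of the 3 Combo libraries, FAC replicate 1 or 3, BafA1 replicate 2 or 3 or Ctrl replicate 3, and without FAC the lower calls were 1 in 5 of 21, among them without Ctrl replicate 2 or BafA1 replicate 1. The difference between the BafA1 changes was called for NORAD (log2 -0.36, adjusted p = 2.16e-05) but not for CYTOR (-0.20, adjusted p = 0.145) or MALAT1 (-0.24, adjusted p = 0.212).

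Entries inside 2 hosts showed the unequal filling between libraries with and without FAC, and were chosen after their values were seen. ENSG00000274760, a misc_RNA entry inside ZFAS1, was at 0.46 to 0.61 FPKM in the 6 libraries without FAC and at 63.7 to 123 in the 6 with it. ZFAS1 itself was at 59.8 FPKM in Ctrl and 62.8 in FAC. ENSG00000271793, a coding entry on the strand of SNHG5 that overlaps it, was at 0 to 0.08 FPKM without FAC and at 3.37 to 4.63 with it, while SNHG5 was at 431 in Ctrl and 426 in FAC.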
